A study of Mus musculus with 40 samples.

Results

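The 47 genes described here encode the machinery that licenses replication origins, fires them and copies DNA behind the fork. They were taken by name from a list chosen with earlier results of these data known. Each of them was found once among the 55536 gene identifiers of the 2 count tables. All 47 passed the filter on low counts in every comparison, and the lowest count of any of them in any library was 274.

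Counts came from RNA-seq of poly(A) RNA from mouse embryonic stem cells (mESCs) of 3 genotypes. These were wild-type (WT) cells with 2 replicates, cells without Ccnc (cyclin C; clones D1, G2, H5) and cells without its partner kinase Cdk8 (clones B9, C8, H4), both parts of the Mediator kinase module that acts on RNA polymerase II. From each culture 1 sample received DMSO for 4 h, and the other received the ATR inhibitor AZD6738 at 900 nM. Each KO clone grew from a single Cas9-edited cell, so a difference between clones and WT cells holds both the gene loss and whatever else set those clones apart. The WT libraries were sequenced 2 times, with the Ccnc KO libraries (the Ccnc multiplex) and again with the Cdk8 KO libraries (the Cdk8 multiplex), so the knockout comparisons share their controls and are given side by side.

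Replication origins are licensed in G1, when the origin recognition complex, Cdc6 and Cdt1 load the MCM2-7 helicase onto DNA. In S phase the kinase Cdc7-Dbf4, Cdc45, the GINS complex and Mcm10 turn the loaded helicase into a moving fork. Primase and polymerase alpha then lay down primers, polymerases delta and epsilon extend them on the Pcna clamp, RPA covers single-stranded DNA, and ribonucleotide reductase (Rrm1 and Rrm2) makes the deoxynucleotides. Embryonic stem cells spend much of their cycle in S phase. ATR guards forks and restrains late origins.

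The 20 libraries held 30899823 to 67274049 counted reads. Levels are given in CPM, normalised counts per 1000000 counted reads. Ccnc mRNA lay at 4.24 to 7.4 CPM in the 6 Ccnc KO libraries and at 39.6 to 45.1 CPM in the WT libraries sequenced with them. Cdk8 mRNA lay at 52.3 to 64.6 CPM in the 6 Cdk8 KO libraries and at 57.7 to 78.6 CPM in their WT libraries. The lowest value of both WT ranges came from WT replicate 2 under AZD6738. Without it the WT libraries held 71.2 to 78.6 CPM of Cdk8, above every Cdk8 KO library. Cdk8 was called lower in Cdk8 KO cells at a log2 fold change of -0.35. It fell only a little and is a weak check of that genotype. WT replicate 2 under AZD6738 was left out of the fits and of the values below, as the study did, unless it is named. Among the members it held 8.67 CPM of Rpa3 and 79.9 CPM of Gmnn, where WT replicate 1 under AZD6738 held 18.1 and 136 CPM in the same multiplex. Of 10 primitive endoderm markers, 8 were called higher without Ccnc and 10 without Cdk8, where 7.01% and 2.28% of all genes were. This list was chosen with earlier results of these data known, so the counts are descriptions. The summed level of the list was 211 to 346 CPM in Ccnc KO against 128 to 148 CPM in WT libraries, and 372 to 592 CPM in Cdk8 KO against 128 to 145 CPM. Summed pluripotency markers were 4290 to 4920 CPM in Ccnc KO against 4880 to 5170 CPM in WT, and 3560 to 4610 CPM in Cdk8 KO against 4760 to 5060 CPM. Their part in the differences below was not tested.

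The DNA before the start is shown for the members called in both knockouts (Rrm2 and Pola2), for the only member that fell (Rfc5), and for the member with most copies of a word that E2F factors bind (Mcm6), so that the starts of members that moved can be read beside the one richest in these words. E2F factors drive many S phase genes, and the CCAAT box binds NF-Y. RefSeq promoters (build GRCm38.p6, 250 bases before to 50 after each start) were searched on both strands for the 4 words TTTCCCGC, TTTCGCGC, TTTGCCGC and TTTGGCGC, whose matches on opposite strands can overlap, and for CCAAT. Each stretch runs 5′ to 3′ toward the gene for 200 bases and ends 30 bases before the start. Capitals mark the matches.

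Rrm2, chr12:24708024-24708223, + strand: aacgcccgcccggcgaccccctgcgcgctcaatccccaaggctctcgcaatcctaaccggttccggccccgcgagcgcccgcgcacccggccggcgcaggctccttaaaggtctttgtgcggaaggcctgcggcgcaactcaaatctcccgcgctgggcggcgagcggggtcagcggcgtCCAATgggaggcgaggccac

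Pola2, chr19:5964237-5964436, - strand: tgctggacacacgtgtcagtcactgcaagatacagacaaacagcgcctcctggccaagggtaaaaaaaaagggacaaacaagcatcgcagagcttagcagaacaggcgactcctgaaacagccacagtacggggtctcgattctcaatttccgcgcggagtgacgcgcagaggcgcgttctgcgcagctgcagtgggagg

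Rfc5, chr5:117389054-117389253, - strand: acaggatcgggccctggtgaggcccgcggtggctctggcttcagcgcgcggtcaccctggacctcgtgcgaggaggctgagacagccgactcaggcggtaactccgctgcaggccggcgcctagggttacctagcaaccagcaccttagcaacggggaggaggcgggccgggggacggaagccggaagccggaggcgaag

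Mcm6, chr1:128359736-128359935, - strand: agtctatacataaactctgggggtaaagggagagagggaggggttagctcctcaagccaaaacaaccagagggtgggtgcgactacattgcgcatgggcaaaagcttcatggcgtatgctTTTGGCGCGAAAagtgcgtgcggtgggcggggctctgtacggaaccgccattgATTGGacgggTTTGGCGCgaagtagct

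Entries matched 38 of the 47 members by symbol, and none was matched for Gmnn, Mcm4, Gins1, Gins2, Gins4, Prim2, Pole, Rfc2 and Tipin. An E2F word stood in the window of 15 of those 38 genes (39.5%), against 704 of 27025 genes with an entry (2.6%). CCAAT stood in 23 of the 38 (60.5%) against 41.1% of all genes. The words were found at 4 of 5 MCM2-7 genes and at 4 of 7 polymerase and primase genes, and at none of the 3 RPA or the 2 nucleotide supply genes. The Rrm2 stretch held CCAAT and no E2F word, the Pola2 and Rfc5 stretches held neither, and the Mcm6 stretch held 3 E2F words, of which 2 overlap on opposite strands, and 1 CCAAT.

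Levels were compared between genes only per kilobase of exon (RPKM, that is CPM divided by exon length in kilobases), as the mean of the 2 untreated WT libraries of the Ccnc multiplex. The MCM2-7 genes had the highest median of the role groups (126 RPKM) and ran from 96.2 RPKM (Mcm6) to 253 RPKM (Mcm5, the highest of all 47). The loader that puts them on DNA was expressed at a lower level, from 7.06 RPKM (Orc4) to 58.3 RPKM (Orc2). Among licensing factors Cdt1 reached 99.5 RPKM, its inhibitor geminin (Gmnn) 89.0 RPKM and Cdc6 23.7 RPKM. Firing factors ran from 13.1 RPKM (Gins3) to 114 RPKM (Gins4). Polymerase genes spread from 8.69 RPKM for the primase subunit Prim2 to 133 RPKM for the polymerase delta subunit Pold2. The clamp Pcna stood at 134 RPKM, while the loader subunits lay between 16.2 RPKM (Rfc2) and 53.8 RPKM (Rfc4). Rpa1 stood at 111 RPKM and Rpa3 at 13.4 RPKM, Lig1 at 93.9 RPKM and Fen1 at 72.9 RPKM, and Tipin at 136 RPKM and Timeless at 29.3 RPKM. Within ribonucleotide reductase the regulated small subunit Rrm2 (127 RPKM) exceeded the large subunit Rrm1 (30.3 RPKM). That gap depends on the annotated exon lengths used, 11.012 kb for Rrm1 and 2.771 kb for Rrm2. Which transcripts the cells used was not measured, so RPKM gaps between genes, also that of Orc4 (7.458 kb), carry this limit.

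The first comparison asked whether loss of Ccnc or Cdk8 changed these transcripts whatever the treatment. Without Ccnc 11 members were higher, by 0.16 to 0.46 (log2 fold change), and 1 was lower. Without Cdk8 3 members were higher (Rrm2, Pola2 and Prim2) and none was lower. Rrm2 had the largest change of the 47 in each knockout. Calls are at an adjusted p under 0.05 (edgeR quasi-likelihood test, Benjamini-Hochberg over all genes tested). The DMSO and AZD6738 libraries of a culture counted as separate replicates of its genotype in this fit. The 12 calls in Ccnc KO cells were 25.5% of the members, where 12.3% of all 18577 genes tested were called. The share of all genes called higher was 7.01% and the share called lower 5.28%. The 3 calls in Cdk8 KO cells were 6.38% of the members, where 4.31% of all 18721 genes were called, 2.28% higher and 2.03% lower. No member passed the additional cut of a fold above 2 or below 0.5, which 1.94% of all genes passed without Ccnc and 1.05% without Cdk8. The member share in Cdk8 KO cells was near that over all genes. As the list was chosen with earlier results of these data known, these shares are descriptions.

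**Figure D1:**
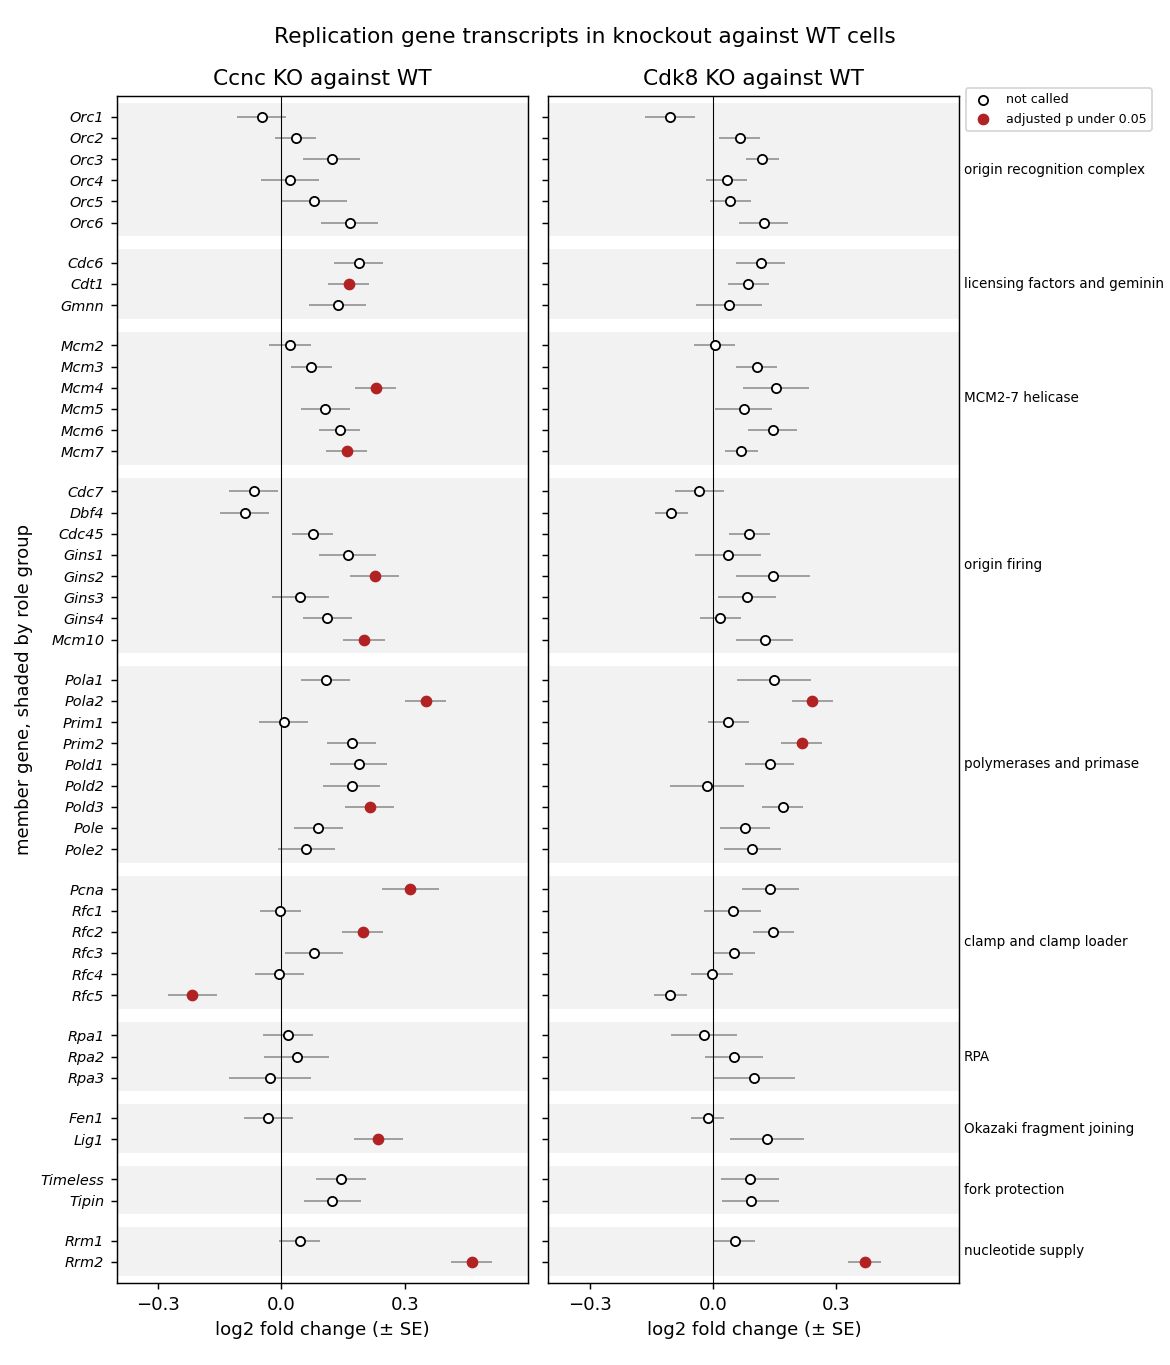
The log2 fold change of each of the 47 genes (x axis, with its SE) in Ccnc KO (left) and Cdk8 KO cells (right) against WT cells, with genes on the y axis shaded by role group. Filled points mark an adjusted p under 0.05, and most points lie a little right of 0 in both panels, with Rrm2 farthest at 0.46 and 0.37.

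The changes were small and mostly in 1 direction. In each knockout 39 of the 47 members had a log2 fold change above 0, with medians of 0.11 (Ccnc KO) and 0.08 (Cdk8 KO), where the medians over all genes tested were 0.00 and 0.01. With trends of GC content and exon length removed, 34 and 30 of the 47 lay above 0, with medians of 0.085 and 0.027 where the medians over all genes were -0.017 and -0.028. WT replicate 2 was itself below WT replicate 1 under DMSO, by a median over the members of 0.06 (Ccnc multiplex) and 0.07 (Cdk8 multiplex).

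Rrm2 (chr12:24708241-24714146, + strand, GRCm38) lay at 364 and 339 CPM in WT replicates 1 and 2 under DMSO and at 371 CPM in WT replicate 1 under AZD6738, against 501, 502 and 485 CPM in clones D1, G2 and H5 under DMSO and 477, 495 and 494 CPM under AZD6738. Every Ccnc KO library lay above every WT library. The log2 fold change was 0.46 ± 0.05 (SE), a rise of 37.8% (adjusted p = 5.32e-05, edgeR). In the Cdk8 multiplex the WT libraries held 375 and 352 CPM under DMSO and 387 CPM under AZD6738, and clones B9, C8 and H4 held 476, 459 and 481 CPM under DMSO and 510, 474 and 505 CPM under AZD6738. Again no library of a group overlapped the other. The log2 fold change was 0.37 ± 0.04 (SE), a rise of 29.2% (adjusted p = 0.00277, edgeR). The large subunit Rrm1 did not pass the test in either, with a log2 fold change of 0.04 ± 0.05 and 0.05 ± 0.05. The Rrm2 call was kept under all 12 alternative settings in Ccnc KO cells and under 10 of 12 in Cdk8 KO cells, where it missed the threshold in the DMSO libraries alone (0.37, adjusted p = 0.138, edgeR) and without WT replicate 1 (0.41, adjusted p = 0.343, edgeR). Rrm2 shares 419 bases at 95.465% identity with the pseudogene Gm48455, whose counts reached 1290 at most where Rrm2 had at least 11250.

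Pola2, the subunit that ties polymerase alpha to its partners (chr19:5940542-5964202, - strand), lay at 125 and 120 CPM in WT cells under DMSO and 120 CPM in WT replicate 1 under AZD6738, and at 162, 157 and 157 CPM in clones D1, G2 and H5 under DMSO and 155, 146 and 143 CPM under AZD6738. The log2 fold change was 0.35 ± 0.05 (adjusted p = 0.000601, edgeR), and the call was kept under all 12 alternatives. Without Cdk8 it was 0.24 ± 0.05 (adjusted p = 0.0383, edgeR), with clone H4 under AZD6738 (125 CPM) inside the WT range of 118 to 129 CPM. Prim2, the large primase subunit, lay at 49.5, 49.6 and 51.5 CPM in the WT libraries of the Cdk8 multiplex and at 55.2 to 60.7 CPM in the 6 Cdk8 KO libraries, with no overlap (0.22 ± 0.05, adjusted p = 0.036, edgeR). Without Cdk8 the Pola2 and Prim2 calls were each kept under only 4 of 12 alternative settings. Both were lost in limma with the clone as a random block (adjusted p = 0.0968 for Pola2 and 0.142 for Prim2), which left Rrm2 alone. That fit changed both the tool and the block, and they were not tested apart. Prim2 in Ccnc KO cells stood at 0.17 ± 0.06 and did not pass.

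**Figure D2:**
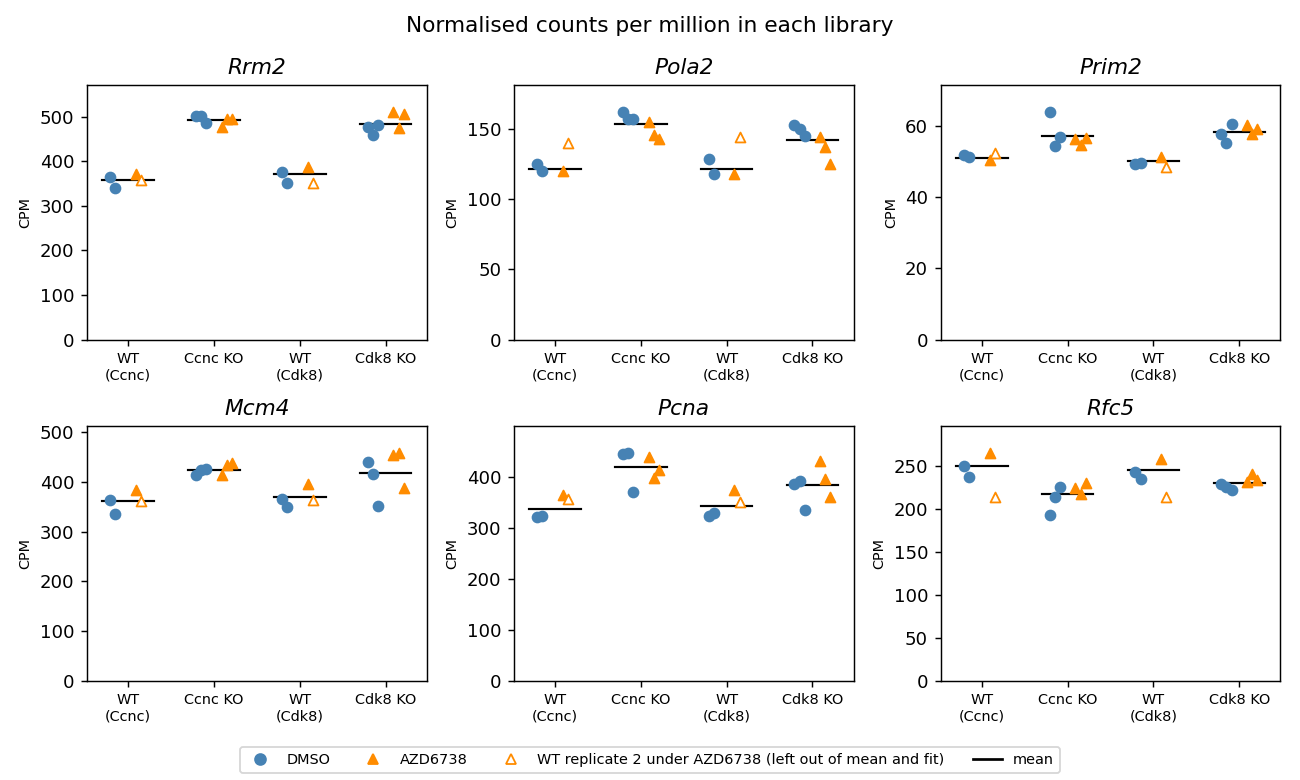
Normalised counts in CPM (y axis, from 0) in each library for 6 members, by genotype and multiplex (x axis), with circles for DMSO, triangles for AZD6738 and a line for the mean. The Rrm2 panel shows no overlap of knockout and WT libraries, while the Mcm4 and Pcna panels show 1 Cdk8 KO clone among the WT points.

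By role, the polymerases and primase and the nucleotide supply pair had the highest medians in both knockouts. The median log2 fold change was 0.17 (Ccnc KO) and 0.14 (Cdk8 KO) for the 9 polymerase and primase genes, and for Rrm1 and Rrm2 it was 0.25 and 0.21. It was 0.06 and 0.05 for the 6 subunits of the origin recognition complex, 0.16 and 0.09 for the licensing factors and geminin, 0.12 and 0.09 for MCM2-7, and 0.09 and 0.06 for origin firing. It was 0.04 and 0.05 for the clamp and clamp loader, 0.02 and 0.05 for RPA, 0.10 and 0.06 for Okazaki fragment joining, and 0.13 and 0.09 for fork protection. These medians are descriptions, and no difference between role groups was tested.

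Of the licensing genes, no subunit of the origin recognition complex passed, with values from -0.05 (Orc1) to 0.17 (Orc6) in Ccnc KO and from -0.10 (Orc1) to 0.12 (Orc6) without Cdk8. Cdt1 rose in Ccnc KO cells by 0.16 ± 0.05 (adjusted p = 0.0383, edgeR), from 297 to 314 CPM in WT to 319 to 355 CPM in KO libraries. Cdc6 had a larger estimate of 0.19 ± 0.06 but missed the threshold (adjusted p = 0.0542, edgeR), and Gmnn stood at 0.14 ± 0.07. Mcm4 lay at 363 and 336 CPM in WT cells and at 414, 423 and 426 CPM in clones D1, G2 and H5 under DMSO, with 384 CPM in WT replicate 1 and 414, 433 and 437 CPM in the clones under AZD6738. Its groups did not overlap (0.23 ± 0.05, adjusted p = 0.00973, edgeR). Mcm7 rose by 0.16 ± 0.05 (adjusted p = 0.0426, edgeR), while Mcm2 (0.02 ± 0.05), Mcm3 (0.07 ± 0.05), Mcm5 (0.11 ± 0.06) and Mcm6 (0.14 ± 0.05) did not pass. The Cdt1 and Mcm7 calls were each kept under only 5 of 12 alternative settings, and the Mcm4 call under 9. Without Cdk8 the helicase ran from 0.00 (Mcm2) to 0.15 (Mcm4) with no call.

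Of the firing factors, 2 of 8 rose in Ccnc KO cells, namely the GINS subunit Gins2 (0.23 ± 0.06, adjusted p = 0.0159, edgeR) and Mcm10 (0.20 ± 0.05, adjusted p = 0.0184, edgeR), at 144 to 156 against 118 to 138 CPM and 257 to 293 against 240 to 252 CPM, with no overlap. The Gins2 and Mcm10 calls were each kept under 8 of 12 alternative settings. The kinase genes pointed the other way without passing, with Cdc7 at -0.07 ± 0.06 and its activator Dbf4 at -0.09 ± 0.06. Without Cdk8 the group ran from -0.10 (Dbf4) to 0.15 (Gins2), and no member passed.

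At the fork, Pold3, an accessory subunit of polymerase delta, rose in Ccnc KO cells by 0.21 ± 0.06 (adjusted p = 0.0333, edgeR), and Lig1, the ligase that seals Okazaki fragments, by 0.24 ± 0.06 (adjusted p = 0.015, edgeR). Pold3 held 109 to 129 CPM against 96.4 to 106 CPM in WT libraries, and Lig1 443 to 496 against 375 to 426 CPM. The Pold3 call was kept under 6 of 12 alternative settings and the Lig1 call under 8. The flap endonuclease Fen1 stood at -0.03 ± 0.06 and the primase catalytic subunit Prim1 at 0.01 ± 0.06. Pcna rose by 0.31 ± 0.07 (adjusted p = 0.00767, edgeR), from 321 and 324 CPM in WT cells to 445, 446 and 371 CPM in the clones under DMSO, with 364 CPM in WT replicate 1 and 439, 398 and 414 CPM in the clones under AZD6738. Pcna shares 781 bases at 99.232% identity with the pseudogene Pcna-ps2, which drew up to 5119 counts in the Ccnc multiplex where Pcna had at least 12598 and which had a log2 fold change of 0.38 itself, so the split of reads between them makes the Pcna value uncertain. In the Cdk8 multiplex Pcna-ps2 drew up to 7734 counts where Pcna had at least 10869, so Pcna values there carry the same limit.

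The clamp loader moved in both directions in Ccnc KO cells. Rfc2 rose by 0.20 ± 0.05 (adjusted p = 0.0171, edgeR) and Rfc5 fell by 0.22 on the log2 scale (SE 0.06, adjusted p = 0.0223, edgeR), while Rfc1 and Rfc4 stood at 0.00 and -0.01. The Rfc2 and Rfc5 calls were each kept under 8 of 12 alternative settings. Rfc5 lay at 249 and 237 CPM in WT cells and at 193, 213 and 225 CPM in clones D1, G2 and H5 under DMSO, and at 264 CPM in WT replicate 1 and 224, 217 and 230 CPM in the clones under AZD6738. The groups did not overlap until WT replicate 2 under AZD6738 (214 CPM) was put back, and the Rfc5 call was then lost (-0.15, adjusted p = 0.188, edgeR). Its pseudogene Gm12870, 96.176% identical over 1020 bases, drew up to 1066 counts where Rfc5 had at least 6495. In Cdk8 KO cells the loader ran from -0.10 (Rfc5) to 0.15 (Rfc2) and Pcna stood at 0.14 ± 0.07. RPA ran from -0.03 (Rpa3) to 0.04 (Rpa2) in Ccnc KO and from -0.02 (Rpa1) to 0.10 (Rpa3) without Cdk8. Timeless and Tipin, which hold the fork together, stood at 0.15 ± 0.06 and 0.12 ± 0.07 in Ccnc KO cells.

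The count of calls depended on the cultures that entered the fit, and so did the share of all genes called. In Ccnc KO cells 12 calls became 3 without clone G2 (6.38% of the members, 7.54% of all genes), 3 in DMSO libraries alone (3.72% of all genes), 2 without WT replicate 1 (4.26% of the members, 1.6% of all genes) and 6 without WT replicate 2 (12.8% of the members, 8.48% of all genes). With WT replicate 2 under AZD6738 put back there were 8 calls (17.0% of the members, 10.6% of all genes). For Cdk8 KO no member was called without WT replicate 1, where 0.00538% of all genes were, or in DMSO libraries alone, where 0.0296% were. Rrm2 was the only call without WT replicate 2 (1.41% of all genes), B9 (8.25% of all genes) or C8 (1.33% of all genes). Without clone H4 there were 10 calls (21.3% of the members, 7.13% of all genes).

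Clone H4 differed from the other Cdk8 KO clones across most of the list. Under DMSO, 42 of 47 members in B9 and 42 of 47 in C8 lay above the WT mean, with medians of 0.17 and 0.12 (log2), against 21 of 47 in H4 with a median of -0.01. Mcm4 lay at 439 CPM in B9, 416 CPM in C8 and 351 CPM in H4, against 366 and 349 CPM in WT cells. Gins2 lay at 155, 150 and 122 CPM, against 132 and 119 CPM. Rrm2 did not follow this split, at 476, 459 and 481 CPM. The 3 Ccnc KO clones had medians of 0.12 (D1), 0.15 (G2) and 0.11 (H5).

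**Figure D3:**
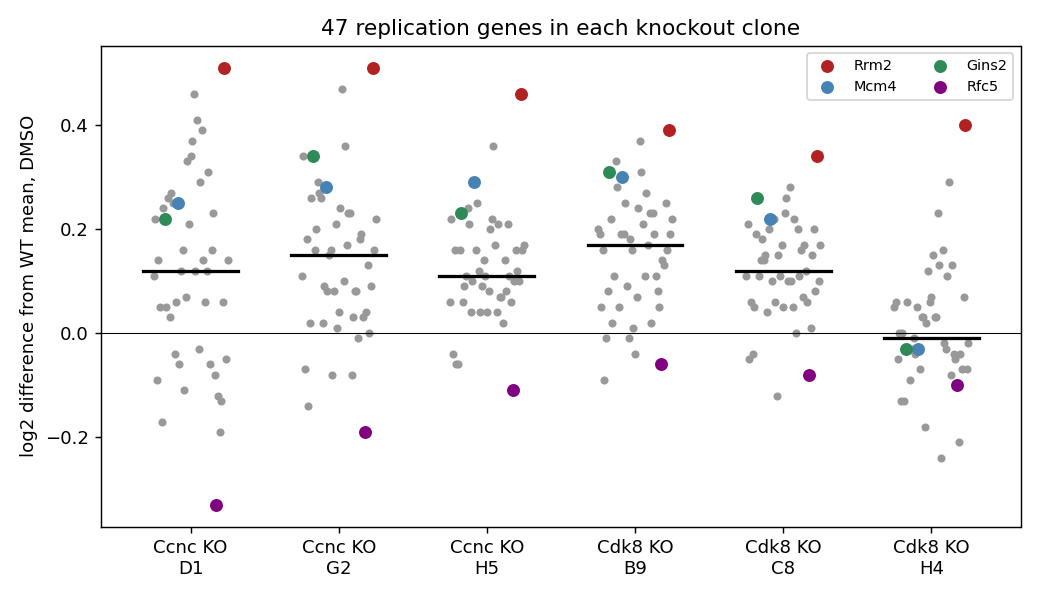
The log2 difference from the WT mean under DMSO (y axis) for all 47 genes in each of the 6 knockout clones (x axis), with a bar at the median and 4 genes in colour. The bar lies at 0.11 to 0.17 in 5 clones and at -0.01 in H4, where Rrm2 still stands at 0.40.

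Of the other replication genes listed with them, 4 of 14 fork factors (28.6%) were called in Ccnc KO cells, where 12.3% of all genes were called. These lists too were chosen with earlier results of these data known. The ribonuclease H2 subunits Rnaseh2b (0.31 ± 0.06, adjusted p = 0.00567, edgeR) and Rnaseh2a (0.20 ± 0.06, adjusted p = 0.0473, edgeR) were higher, while Atad5, which unloads the clamp (-0.21 ± 0.06, adjusted p = 0.0405, edgeR), and Rif1, which restrains late origins (-0.29 ± 0.07, adjusted p = 0.00999, edgeR), were lower. Among other nucleotide supply genes, the enzymes of thymidine nucleotide synthesis Tyms (0.24 ± 0.05, adjusted p = 0.00927, edgeR), Dctd (0.24 ± 0.05, adjusted p = 0.00949, edgeR) and Dtymk (0.17 ± 0.05, adjusted p = 0.0331, edgeR) rose. None of 5 further firing factors, 2 tested polymerase subunits or 5 histone deposition genes passed. In Cdk8 KO cells no gene of the fork factor, firing, polymerase or histone deposition lists passed, and Tyms, Dctd and Dtymk did not pass. Of 20 G2/M genes 1 was lower in Ccnc KO cells (Hmmr, -0.23 ± 0.07) and none in Cdk8 KO cells, with medians of -0.04 and -0.02.

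The next comparison asked what 4 h of AZD6738 did to these transcripts beside genotype. No member was called in the Ccnc multiplex, where 1.11% of all genes were, or in the Cdk8 multiplex, where 0.0855% were (edgeR). DESeq2 also called none in either, where it called 2.17% and 1.19% of all genes. By edgeR 2 and 4 members had an unadjusted p under 0.05. The medians were 0.03 and 0.04, and the members ran from -0.20 (Orc5) to 0.19 (Rpa3) in the Ccnc and from -0.12 (Pola2) to 0.20 (Rpa3) in the Cdk8 multiplex. Rrm2 stood at 0.01 and 0.08. All 6 MCM2-7 genes had estimates above 0 in each multiplex, with medians of 0.08 and 0.09. The medians of the 20 G2/M genes were 0.09 and 0.14, and Cdc20 and Cenpf passed in the Ccnc multiplex. By role the medians ran from -0.05 (origin recognition complex) to 0.10 (RPA) in the Ccnc and from -0.04 (licensing factors and geminin) to 0.10 (nucleotide supply) in the Cdk8 multiplex. None of the other replication genes passed in this fit.

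Each AZD6738 library came from the same clone or replicate as a DMSO library, so the fit was also made with the culture as a block. In the Ccnc multiplex still no member was called, where 2.43% of all genes were. In the Cdk8 multiplex the blocked fit called 7 members, 14.9% of the list, which is near the 11.3% of all genes called. The same fit called 12 of the 20 G2/M genes, 11 of them higher, with a median of 0.14, and their part in the members' values was not tested. Mcm6 (0.12 ± 0.03, adjusted p = 0.0122, edgeR), Mcm4 (0.11 ± 0.03), Mcm2 (0.09 ± 0.03), Mcm5 (0.09 ± 0.03), Cdc6 (0.12 ± 0.03) and Pcna (0.12 ± 0.03) rose, and Pola2 fell by 0.14 (SE 0.03, adjusted p = 0.0117, edgeR). The Pcna value carries the limit set by its pseudogene Pcna-ps2. The direction was the same in clones B9, C8 and H4 and in WT replicate 1 for all 7. These are the cultures whose changes made the calls, so their agreement adds no separate evidence. In WT replicate 2 Pola2 moved by 0.28, Mcm6 by -0.12 and Mcm5 by -0.10, and the other 4 moved as in the other cultures. With WT replicate 2 under AZD6738 put back, the blocked fit called none of the 47, where 2.72% of all genes were called. Of the other replication genes, the blocked fit without that library called the firing factor Mtbp (-0.15 ± 0.04, adjusted p = 0.0289, edgeR) and the thymidine kinase Tk1 (-0.24 ± 0.04, adjusted p = 0.000935, edgeR) lower, and Top1, which relaxes DNA ahead of the fork (0.22 ± 0.03, adjusted p = 0.00147, edgeR), and Rif1 (0.15 ± 0.04, adjusted p = 0.0208, edgeR) higher.

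**Figure D4:**
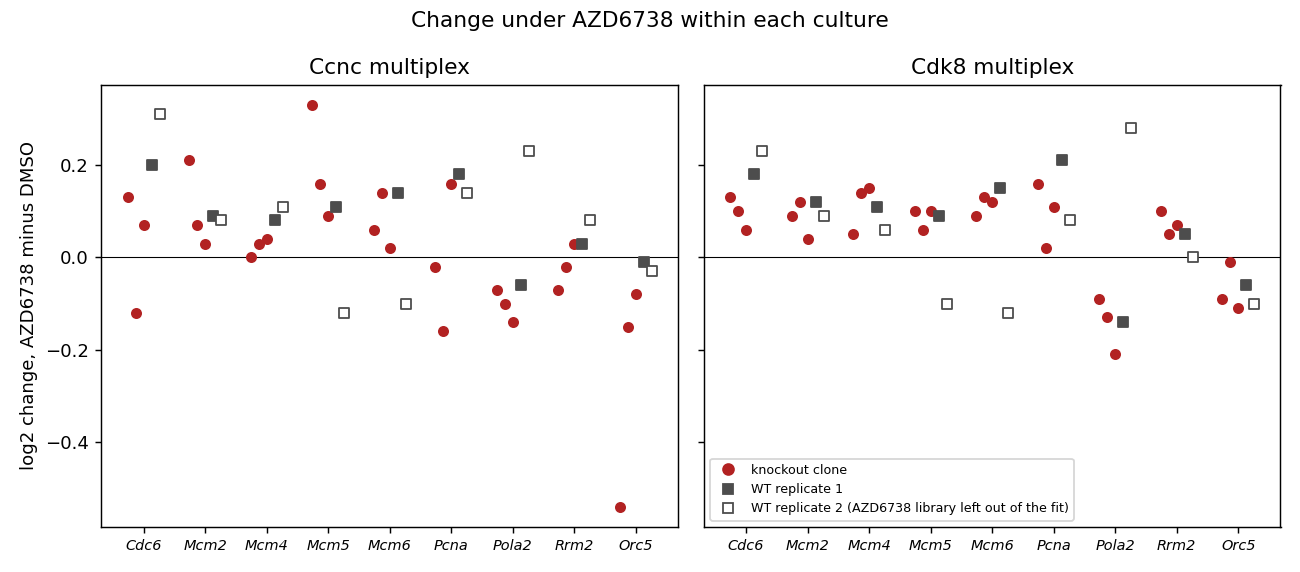
The log2 change from DMSO to AZD6738 (y axis) within each culture for 9 members (x axis) in the Ccnc (left) and Cdk8 multiplex (right), with circles for knockout clones, filled squares for WT replicate 1 and open squares for WT replicate 2. In the Cdk8 panel Pola2 lies between -0.21 and -0.09 in 4 cultures and at 0.28 in WT replicate 2.

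Mcm5 and Orc5 had the lowest unadjusted p in the Ccnc multiplex, at 0.16 ± 0.05 (adjusted p = 0.155, edgeR) and -0.20 ± 0.07 (adjusted p = 0.176, edgeR). Mcm5 changed by 0.33, 0.16 and 0.09 in clones D1, G2 and H5 and by 0.11 in WT replicate 1. Orc5 changed by -0.54 in D1, -0.15 in G2 and -0.08 in H5, and by -0.01 in WT replicate 1, so that D1 carried most of its estimate.

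Within the knockout clones alone AZD6738 called no member. The share of all genes called there was 0.0894% for Ccnc KO and 0.0% for Cdk8 KO clones (edgeR). DESeq2 called no member, where it called 0.688% and 0.166% of all genes. By edgeR 3 and 0 members had an unadjusted p under 0.05. The largest estimates were Orc5 (-0.26) and Mcm5 (0.19) in Ccnc KO, and Rpa3 (0.18) and Pola2 (-0.15) in Cdk8 KO clones. With the clone as a block Pola2 was called in Cdk8 KO clones (-0.15 ± 0.04, adjusted p = 0.0409, edgeR), 1 of 47 where 6.95% of all genes were called. Its level went from 153, 150 and 145 CPM in B9, C8 and H4 to 144, 137 and 125 CPM.

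The last comparison asked whether the response to AZD6738 differed between knockout and WT cells. No member passed for Ccnc KO or Cdk8 KO, and none of all genes tested did (0.0% for Ccnc KO, 0.0% for Cdk8 KO, edgeR). DESeq2 called no member either, and 2 and 0 members had an unadjusted p under 0.05 by edgeR. The median interaction was -0.084 and -0.055, with 39 of 47 members below 0 in each. Over all genes tested the medians were 0.006 and -0.001. Both member values rested on the 1 WT library under AZD6738 that the multiplexes share, so they do not replicate each other. With the culture as a block the median interaction of the members was -0.036 and -0.016, with 33 of 47 below 0 in each. With WT replicate 2 put back, without the block, it was -0.018 and 0.014. The members with an unadjusted p under 0.05 were Orc3 (-0.30 ± 0.13) and Rfc3 (-0.27 ± 0.12), both with an adjusted p = 1.0 (edgeR).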

How the data were processed

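RNA-seq was performed in 2 WT replicates and 3 clones each of Ccnc KO and Cdk8 KO mESCs, in DMSO or AZD6738. According to the study's methods and the submitters' processing notes, the authors trimmed single-end reads of stranded poly(A) libraries with Trimmomatic 0.38, aligned them to GRCm38.p6 with HISAT2 2.1.0 and counted them per gene with featureCounts 2.0.1, ignoring reads marked as duplicates and using strand. The deposited values used here are these raw counts per gene and lane. The deposited rlog tables were not used. Removing duplicates can understate highly expressed genes.

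The 2 lanes of each library were summed. The members, role groups and other lists were chosen with earlier results of these data known. All 55536 identifiers were named with GENCODE M21. Differential expression was tested in edgeR 4.0.16 (R 4.3.3) with TMM scaling, filterByExpr and glmQLFTest, separately in each multiplex, with treatment or genotype as covariate, and p-values were adjusted by Benjamini-Hochberg over all genes tested. Log2 differences between single libraries were taken on log2 CPM with a prior count of 2. CPM and RPKM values are TMM-scaled. Values after ± are SE, taken from the fold change and its F statistic. WT replicate 2 under AZD6738 was left out, following the study. DESeq2 1.42.0 and limma 3.58.1 (voom with the culture as a random block), other scalings, filters, a GC and length correction, left-out cultures and a fixed replicate block were alternatives. Members named with statistics were those called in a comparison, the highest and lowest log2 fold change of each role group, and the highest and lowest RPKM of each complex. The scripts were tested on simulated data. Clones count as replicates, and the labels do not say how the 2 WT replicates were separated. In the main fits of knockout against WT, the DMSO and AZD6738 libraries of a culture counted as separate replicates of its genotype. Their p-values therefore mix the spread between cultures with the spread between libraries of 1 culture. The within-culture correlation in the limma fit was 0.124 (Ccnc multiplex) and 0.563 (Cdk8 multiplex).

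DMSO and AZD6738 libraries of a clone are the same cell line, so they pair. Their deviations from the group mean correlated with r of 0.207 (D1), 0.03 (G2), 0.217 (H5), 0.608 (B9), 0.209 (C8) and 0.682 (H4) across genes, which are not independent replicates. For G2 the DMSO library correlated more with the AZD6738 library of D1 (r of 0.061) than with its own, so these values do not show its pairing. Chtf8 matched more than 1 identifier and was left out. A result for 1 listed nucleotide supply gene is not reported here.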

Additional observations from a re-analysis of the deposited data

Results flagged for a closer look

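Orc3, a subunit of the origin recognition complex, was flagged for its changes under AZD6738 in the Ccnc multiplex, of which that of clone D1 was by far the largest. It changed by -0.40, -0.08 and -0.01 (log2) in D1, G2 and H5 (Ccnc KO) and by 0.14 and 0.05 in WT replicates 1 and 2, a difference between the group medians of -0.17. The interaction fit, which leaves out WT replicate 2 under AZD6738, gave -0.30 ± 0.13 (adjusted p = 1.0, edgeR), so the difference did not pass its test. In the Cdk8 multiplex B9, C8 and H4 changed by -0.03, 0.14 and 0.00. The WT libraries sequenced again there changed by 0.10 (WT replicate 1) and -0.04 (WT replicate 2), so the sign of WT replicate 2 was not kept.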

How the results depend on the processing

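The counts of members called changed by over 1.5 times, or from 0, in these settings. Ccnc KO against WT gave 12 calls, 3 with DMSO libraries alone and 2 to 16 with 1 culture left out. Cdk8 KO against WT gave 3 calls, 0 with DMSO libraries alone, 1 with the GC and length trend removed, 1 in limma with the replicate block as a random effect and 0 to 10 with 1 culture left out. For this comparison the GC and length fit called 4.84% of all genes and the limma fit 1.27%. AZD6738 in the Cdk8 multiplex gave 0 calls, 7 with the replicate block (6 higher, 1 lower) and 17 with the replicate block and the GC and length trend removed (13 higher, 4 lower), 36.2% of the members where that fit called 15.1% of all genes. In the Ccnc multiplex the latter gave 1 call (Mcm5), 2.13% of the members where 7.21% of all genes were called. In Cdk8 KO clones alone the replicate block gave 1 call and the block with the GC and length correction 5, 10.6% of the members where 11.4% of all genes were called. The replicate block changed no other call count of the members. The fit with the block and WT replicate 2 under AZD6738 put back, chosen after seeing the data, gave 0 in both multiplexes. That fit called 0.259% of all genes in the Ccnc and 2.72% in the Cdk8 multiplex. The cause of these shifts was not tested. Fits with a culture left out or with DMSO libraries alone also held fewer libraries, and this was not tested apart. No called member reversed direction under any of its 12 alternatives. Rrm2 ranged from 0.39 to 0.55 in Ccnc KO and from 0.30 to 0.41 in Cdk8 KO cells, and Pola2 from 0.28 to 0.41 and from 0.16 to 0.32. No interaction could be fitted without WT replicate 1, which leaves no WT library under AZD6738. The WT group held 3 libraries in the fits, and the interaction rests on 1 WT library under AZD6738.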
